A study of Rattus norvegicus with 12 samples.

Results

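Class 3 semaphorins, the neuropilins that bind them and the plexins that pass on their signal were followed in rat XEN cells, an extraembryonic endoderm stem cell line of the Fisher strain, on 12 Affymetrix rat gene arrays. The genes were chosen by name: Sema3a, Sema3b, Sema3c, Sema3e, Nrp1, Nrp2, Plxna1 and Plxnd1. Of these 8, 7 were measured among the 16582 genes of the array, through 153 probe sets, and Plxna1 was not analysed here. The set was picked because Sema3c was higher with forskolin, so its forskolin values are given below as a description. Each of 4 groups had 3 arrays. The CHIR_Forskolin group received 3 µM CHIR99021 (CHIR) for 2 days, with 10 µM forskolin added on the last 1 day. CHIR cells had 3 µM CHIR99021 alone for 2 days. Forskolin cells had 10 µM forskolin alone for 1 day, and Control cells had neither compound. All cells were in low-serum medium on the last day, and CHIR exposure was longer than forskolin exposure. The labels do not say that the 3 samples of a group were separate cultures, so each p-value reflects only how these samples varied, and that variation may be technical. All data come from 1 cell line, in which fewer expressing cells and less RNA per cell cannot be told apart.

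Class 3 semaphorins are secreted guidance proteins, best known for repelling growing axons and migrating endothelial cells. Most of them bind a neuropilin, which has little signalling capacity of its own and works as the binding part of a receptor complex, while a plexin carries the signal into the cell and loosens its adhesion and cytoskeleton. Sema3e is the exception, since it binds Plxnd1 directly. Neuropilins also serve as co-receptors for vascular endothelial growth factors. CHIR99021 inhibits the kinase GSK3 and so stabilises beta-catenin, and forskolin activates adenylate cyclase and so raises cAMP.

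Values are log2 signals as the authors deposited them, with a gene taken as the median of its probe sets. They are given as mean ± SD over 3 arrays. As a guide to background, 1101 olfactory receptor genes, which few tissues express, had a 95th percentile of 6.42. A level under it is called near background, where array values can be compressed and differences understated. Array medians lay between 7.76 and 7.86, and arrays correlated at 0.995 to 0.997 within groups and at 0.966 to 0.990 between groups. All 8 extraembryonic endoderm markers (Gata4, Gata6, Sox7, Sox17, Dab2, Foxa2, Lama1 and Sparc) lay above the guide level in every group mean. Axin2, a feedback target of Wnt signalling, averaged 8.64 ± 0.08 with CHIR and 5.75 ± 0.15 in control. Crem, a cAMP-induced factor, averaged 10.18 ± 0.15 with forskolin and 8.73 ± 0.15 in control. Each came from a list of checks. Of 6 Wnt genes 3 rose with CHIR, 0 fell and 3 were not called, where 14.3% of all genes rose and 13.9% fell. Of 8 cAMP genes 7 were higher with forskolin and 1 was lower, where 6.08% of all genes were higher and 8.96% lower.

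Sema3c, a secreted ligand that binds both neuropilins, had a different level in each of the 4 groups. The arrays of CHIR_Forskolin cells read 8.70, 8.52 and 8.92. With CHIR alone they read 5.83, 5.44 and 5.78, with forskolin alone 9.86, 9.70 and 9.96, and in control 7.38, 7.36 and 7.57. No 2 groups overlapped, and the order from high to low was forskolin, CHIR with forskolin, control and CHIR. The mean of 9.84 ± 0.13 with forskolin stood 2.40 log2 units (SE 0.124, 5.3-fold) above the control mean of 7.44 ± 0.12, a difference that led to the choice of these genes. CHIR went the other way. Sema3c fell with CHIR by 1.75 log2 units (SE 0.124, adjusted p = 9.07e-08 by limma), and the CHIR mean of 5.69 ± 0.21 was near background. This comparison shares its control arrays with the one that led to the choice. In CHIR-treated cells Sema3c was 3.03 log2 units, or 8.15-fold, higher with the added forskolin (SE 0.124), at 8.71 ± 0.20 in CHIR_Forskolin cells. The difference between CHIR_Forskolin and CHIR is taken only from the arrays of those groups. Its SE also uses the forskolin and control arrays, because the fit shares its estimate of spread among all groups. Sema3c was chosen for its rise with forskolin, so this difference is also a description, and no p-value is given for it. With both compounds the level lay 1.28 above control and 1.13 below forskolin alone.

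**Figure D1:**
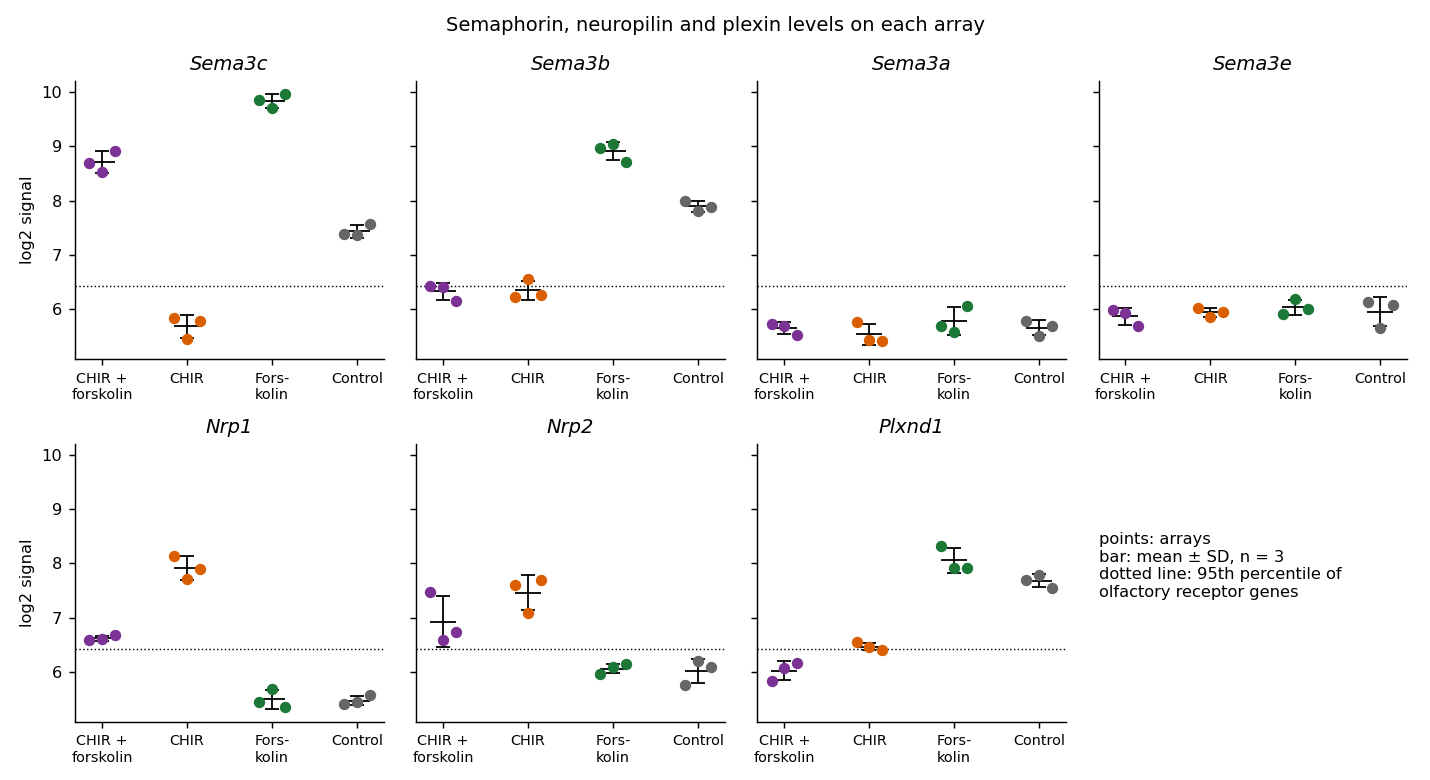
Each panel plots the log2 signal (y axis) of 1 gene on the 3 arrays of each group (x axis), with bars for mean ± SD and a dotted line at the 95th percentile of olfactory receptor genes (6.42). Sema3c arrays with forskolin lie between 9.70 and 9.96 and those with CHIR between 5.44 and 5.83, while Nrp1 arrays with CHIR lie between 7.71 and 8.13 and those of control between 5.40 and 5.56.

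The window around the annotated start of Sema3c is shown because this gene had the widest range of levels, and that of Nrp1 because it rose most with CHIR. The start used for Sema3c lies inside the span annotated for the gene, whose outer end is kilobases further 5′, so the window is that of 1 annotated transcript start and not of the outermost one. The starts of Plxnd1, Nrp2 and Sema3e also lie inside their spans. The sequences are from RefSeq (assembly GRCr8), 250 bases before to 50 bases after the start, on the gene's strand, and capitals mark a motif match.
Sema3c, chr4:18699578-18699877, minus strand: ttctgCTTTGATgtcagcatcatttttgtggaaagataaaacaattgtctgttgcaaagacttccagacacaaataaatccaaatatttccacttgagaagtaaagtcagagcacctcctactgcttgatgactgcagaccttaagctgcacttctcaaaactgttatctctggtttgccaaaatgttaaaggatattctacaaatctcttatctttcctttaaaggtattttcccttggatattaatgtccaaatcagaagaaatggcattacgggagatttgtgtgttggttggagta
Nrp1, chr19:73256307-73256606, plus strand: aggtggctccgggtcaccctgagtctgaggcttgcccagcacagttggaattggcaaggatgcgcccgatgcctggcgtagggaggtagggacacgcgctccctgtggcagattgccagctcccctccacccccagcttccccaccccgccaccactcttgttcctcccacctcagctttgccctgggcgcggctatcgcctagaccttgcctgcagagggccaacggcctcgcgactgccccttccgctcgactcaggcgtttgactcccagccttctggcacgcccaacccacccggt
The motifs searched on both strands were TGACGTCA, the full cAMP response element, its shorter form TGACG, which lies within it, and the TCF/LEF cores CTTTGAT and CTTTGAA. The Sema3c window held CTTTGAT once, with its first base 245 bases before the start, and CTTTGAT or its reverse complement occurred in 3.63% of 33469 windows of this length. The letters TGACGTCA were in 1.83%, TGACG in 21.2% and CTTTGAA in 5.4% of them, and none of these was in the Sema3c window. The Nrp1 window held none of the motifs. Of the 8 listed genes 5 had such a window. Those of Nrp2 and Plxnd1 held none of the motifs, and that of Sema3e held TGACG and CTTTGAA once each on the other strand. The base composition differed widely, with 36.3% G and C for Sema3c, 66.3% for Nrp1 and 83.0% for Plxnd1, against a median of 51.7% over all windows.

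Sema3b, a second secreted ligand, often studied as a growth suppressor, was high with forskolin and low whenever CHIR was present. Its arrays read 6.42, 6.40 and 6.15 in CHIR_Forskolin cells, 6.23, 6.55 and 6.25 with CHIR, 8.97, 9.04 and 8.72 with forskolin, and 8.00, 7.80 and 7.88 in control. The 2 groups with CHIR overlapped each other near background, and the forskolin and control groups lay apart from them and from each other. Sema3b fell with CHIR by 1.55 log2 units (SE 0.115, adjusted p = 1.45e-07), and it was 1.01 higher with forskolin than in control (SE 0.115). CHIR_Forskolin cells differed from forskolin alone by -2.58 log2 units (adjusted p = 1.31e-09). Between CHIR_Forskolin and CHIR the median of its probe sets differed by -0.02 (95% interval -0.27 to 0.23, adjusted p = 0.95). That value hides part of the gene: 4 of its 19 probe sets were higher with the combination, by 0.77 to 1.07 log2 units, and 0 were lower. With the brightest probe set standing for the gene the difference was 1.00 (adjusted p = 0.000935), and with the mean of all probe sets 0.21 (adjusted p = 0.0319).

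Sema3a, the founding repellent of the class, and Sema3e, the ligand of Plxnd1, had gene values near background on every array. Sema3a averaged 5.64 ± 0.11 in CHIR_Forskolin cells, 5.53 ± 0.19 with CHIR, 5.78 ± 0.25 with forskolin and 5.66 ± 0.14 in control. Sema3e averaged 5.87 ± 0.15, 5.94 ± 0.09, 6.03 ± 0.14 and 5.95 ± 0.26 in the same order of groups. Their arrays overlapped in all 6 pairs of groups. The widest difference of Sema3a was -0.24 between CHIR and forskolin (95% interval -0.53 to 0.04, adjusted p = 0.178). Some of their probe sets were brighter: 5 of 17 for Sema3a and 6 of 16 for Sema3e passed the guide level in at least 1 group mean. The brightest of Sema3a averaged 7.07 in CHIR_Forskolin cells, 7.67 with CHIR, 7.64 with forskolin and 7.18 in control, and that of Sema3e 7.45, 7.28, 7.16 and 7.19 in the same order.

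Nrp1, the neuropilin through which Sema3a acts and a co-receptor for VEGF-A, had a gene value near background unless CHIR was present. Its arrays read 6.58, 6.60 and 6.67 in CHIR_Forskolin cells, 8.13, 7.71 and 7.90 with CHIR, 5.43, 5.69 and 5.34 with forskolin, and 5.40, 5.43 and 5.56 in control. CHIR lay highest, the combination between, and forskolin and control overlapped at the bottom. Nrp1 rose with CHIR by 2.45 log2 units, or 5.45-fold (SE 0.112, adjusted p = 1.3e-09), the largest rise among the 7 measured genes in that comparison. Forskolin added to CHIR lowered it by 1.30 (difference -1.30, SE 0.112, adjusted p = 2.66e-06), which left CHIR_Forskolin cells 1.15 above control (adjusted p = 2.68e-06). Without CHIR the difference between forskolin and control was 0.02 (95% interval -0.22 to 0.26). Of its 21 probe sets 5 lay above the guide level in control and 20 with CHIR. The brightest one averaged 8.28 in CHIR_Forskolin cells, 9.37 with CHIR, 7.68 with forskolin and 7.65 in control, so it too showed little difference between forskolin and control (0.03).

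Nrp2, the second neuropilin and the one preferred by Sema3f, followed the same order with more spread. Its arrays read 7.46, 6.58 and 6.73 in CHIR_Forskolin cells, 7.60, 7.09 and 7.69 with CHIR, 5.96, 6.08 and 6.13 with forskolin, and 5.76, 6.20 and 6.08 in control. Both groups with CHIR lay above both groups without it, and within each of these pairs the arrays overlapped. Nrp2 rose with CHIR by 1.45 (SE 0.205, adjusted p = 8.34e-05) and with both compounds by 0.91 against control (adjusted p = 0.00361). The difference of -0.54 between CHIR_Forskolin and CHIR did not pass (adjusted p = 0.11). It passed without CHIR replicate 2 (-0.72, adjusted p = 0.0411) and without CHIR_Forskolin replicate 1 (-0.81, adjusted p = 0.00668), the array at 7.46. The rise with CHIR was carried by part of the probe sets, since 9 of 19 rose and the brightest one differed by 0.09 (adjusted p = 0.727). With the brightest probe set the difference between CHIR_Forskolin and control turned to -0.063 (adjusted p = 0.803) and that between CHIR_Forskolin and forskolin to -0.14 (adjusted p = 0.505). With the mean of the probe sets the rise with CHIR was 0.89 (adjusted p = 0.000105).

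Plxnd1, the plexin that binds Sema3e and also serves neuropilin complexes, fell with CHIR, where both neuropilins rose, and with forskolin added to CHIR it was called lower, as Nrp1 was. Its arrays read 5.82, 6.06 and 6.16 in CHIR_Forskolin cells, 6.54, 6.45 and 6.40 with CHIR, 8.33, 7.91 and 7.92 with forskolin, and 7.70, 7.79 and 7.54 in control. No 2 groups overlapped, and the order from high to low was forskolin, control, CHIR and the combination. Plxnd1 fell with CHIR by 1.21 (SE 0.121, adjusted p = 3.06e-06) and was 0.38 higher with forskolin than in control (SE 0.121). With CHIR present, forskolin lowered it by 0.45 (difference -0.45, SE 0.121, adjusted p = 0.0227). That last call was lost without CHIR replicate 1 (-0.41, adjusted p = 0.0864), CHIR replicate 2 (-0.45, adjusted p = 0.0575) or CHIR_Forskolin replicate 1 (-0.35, adjusted p = 0.101), with the brightest probe set (-0.20, adjusted p = 0.258), and with only the probe sets above the guide level (-0.26, adjusted p = 0.199). Against forskolin alone, Plxnd1 in CHIR_Forskolin cells differed by -2.04 log2 units (adjusted p = 2.13e-08).

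With CHIR against control 2 of the 7 rose (both neuropilins) and 3 fell (Sema3c, Sema3b and Plxnd1), where 14.3% of all genes rose and 13.9% fell. With forskolin against control 2 were called higher (Sema3c and Sema3b) and 0 lower, where 6.08% of all genes were higher and 8.96% lower. Since that comparison led to the choice, nothing is read from this count. With CHIR_Forskolin against control 3 rose (Sema3c, Nrp1 and Nrp2) and 2 fell (Sema3b and Plxnd1), against 14.3% and 14.7% of all genes. With CHIR_Forskolin against CHIR 1 rose (Sema3c) and 2 fell (Nrp1 and Plxnd1), against 6.53% and 7.39%. With CHIR_Forskolin against forskolin 2 were higher (both neuropilins) and 3 lower, against 16.4% and 13.7%. With CHIR against forskolin the same 2 were higher and the same 3 lower, against 19.5% and 15.7%. These comparisons share arrays. Sema3c, whose forskolin values led to the choice, is counted in each of them and in each count of arrays apart below. Its part in these counts is a description. The 3 arrays of one group lay wholly apart from the 3 of the other for 5 of the 7 genes with CHIR against control, for 3 with forskolin against control, and for 3 with CHIR_Forskolin against CHIR, where 38.1%, 30.8% and 28.5% of all genes did so. They lay apart for 5 of the 7 with CHIR_Forskolin against control, with CHIR_Forskolin against forskolin and with CHIR against forskolin, where 40.3%, 43.9% and 45.6% of all genes did so. The median difference over the 7 genes was -0.12 with CHIR against control, beside 0.01 over all genes. That median is the value of Sema3a, which was not called and lay near background, so it does not describe a shift of the set. When arrays were centred on their medians, the share of higher genes among all genes called became 56.2% in place of 40.5% for forskolin against control, 66.2% in place of 49.4% for CHIR_Forskolin against control, and 58.5% in place of 46.9% for CHIR_Forskolin against CHIR. Under that scaling Plxnd1 joined the genes called higher with forskolin, and the calls of the other comparisons kept their counts.

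**Figure D2:**
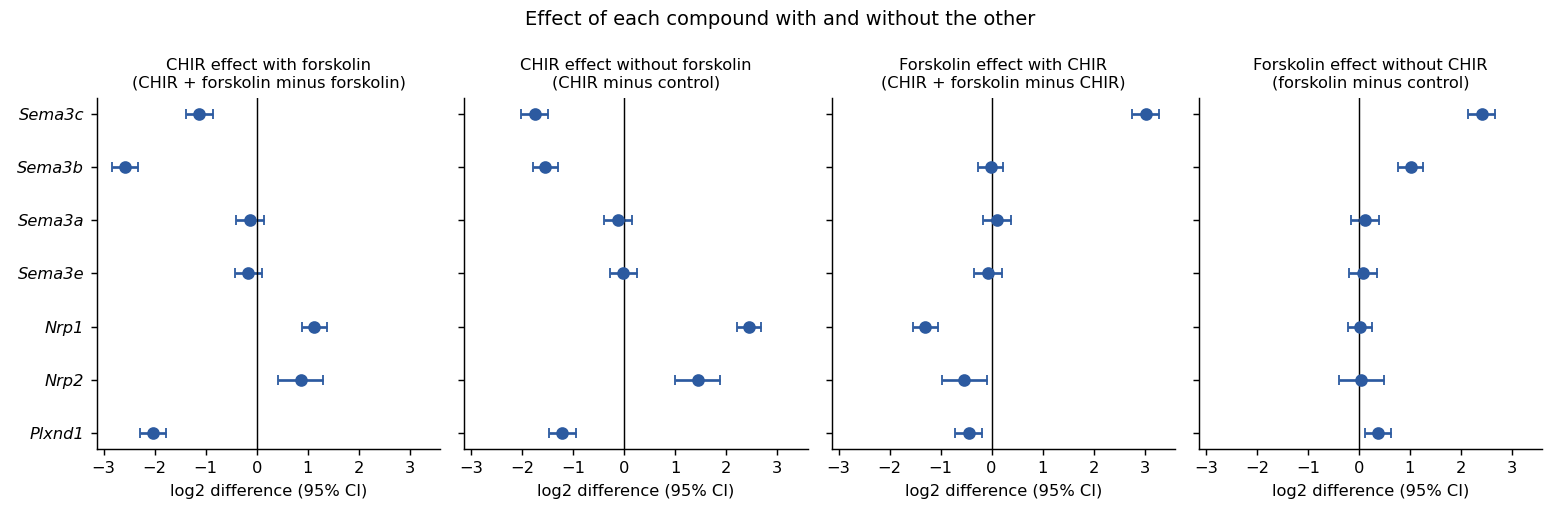
The panels plot the log2 difference with its 95% interval (x axis) for the 7 genes (y axis), for CHIR with and without forskolin and for forskolin with and without CHIR. In the forskolin panels Nrp1 lies at -1.30 with CHIR and at 0.02 without it, and Sema3c at 3.03 with CHIR and at 2.40 without it.

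The effect of forskolin with CHIR was set against its effect without CHIR through the interaction of the fit. Sema3c is left out of the count, because its forskolin values led to the choice, and its difference had a positive sign (0.62). Of the other 6 genes 3 passed and were negative, where 6.33% of all genes passed, 3.26% positive and 3.08% negative. For Nrp1 the forskolin effect was -1.30 with CHIR and 0.02 without it, a difference of -1.32 (SE 0.158, adjusted p = 0.000145). For Sema3b it was -0.02 with CHIR and 1.01 without it, a difference of -1.03 (SE 0.162, adjusted p = 0.00133). With the brightest probe set of Sema3b the difference was -0.20 and the call was lost (adjusted p = 0.749). For Plxnd1 it was -0.45 with CHIR and 0.38 without it, a difference of -0.82 (SE 0.171, adjusted p = 0.00889). With only the probe sets above the guide level, an alternative chosen after seeing the data, that of Plxnd1 was -0.54 and the call was lost (adjusted p = 0.0913). For Sema3c, given as a description, the effect was 3.03 with CHIR and 2.40 without it (difference 0.62, SE 0.175). Put another way, the observed level of Sema3c with both compounds lay 1.28 above control, where the 2 single effects add to 0.65, and that of Nrp1 lay 1.15 above control, where they add to 2.47. For Nrp2 the difference of -0.58 did not pass (adjusted p = 0.317), and it passed without CHIR_Forskolin replicate 1 (-0.85, adjusted p = 0.0413). The gene values of Sema3b with CHIR, of Nrp1 without CHIR and of Plxnd1 with both compounds were near background, and that of Plxnd1 with CHIR was 6.46 ± 0.07. The part of compression at low signal in these differences of effects was not tested.

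The probe sets of a gene are separate measurements along its transcript, made on the same arrays. For Sema3c 17 of 21 probe sets fell with CHIR and 0 rose, where 8.44% of all probe sets fell and 8.36% rose. In CHIR_Forskolin cells 18 of the 21 were higher than with CHIR and 0 lower, where 2.53% of all probe sets rose and 3.51% fell. That count is a description, since Sema3c was chosen for its rise with forskolin. For Sema3b 14 of 19 fell with CHIR, and for Plxnd1 20 of 40. For Nrp1 19 of 21 rose with CHIR and 14 of 21 were lower in CHIR_Forskolin cells than with CHIR. In both comparisons 0 probe sets of Nrp1 went the other way. For Plxnd1 3 of 40 were lower in CHIR_Forskolin cells than with CHIR and 0 higher, and for Nrp2 1 of 19 was lower. Of the 16 probe sets of Sema3e 0 passed in either comparison, and of the 17 of Sema3a 1 rose with CHIR. With forskolin against control 18 probe sets of Sema3c and 15 of Sema3b were called higher and 0 lower, beside 2.99% and 3.51% of all probe sets, which is a description. In CHIR_Forskolin cells 31 of the 40 probe sets of Plxnd1 were lower than with forskolin and 0 higher, while 10 of the 21 of Nrp1 and 8 of the 19 of Nrp2 were higher and 0 lower, where 9.73% of all probe sets were higher and 9.33% lower. The interaction was negative for 7 probe sets of Nrp1 and 7 of Sema3b, positive for 3 of Sema3c, and passed for 0 of Plxnd1, where 0.683% of all probe sets were positive and 0.888% negative. Single probe sets ranged widely, with CHIR differences of Nrp1 between -0.24 and 4.45.

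**Figure D3:**
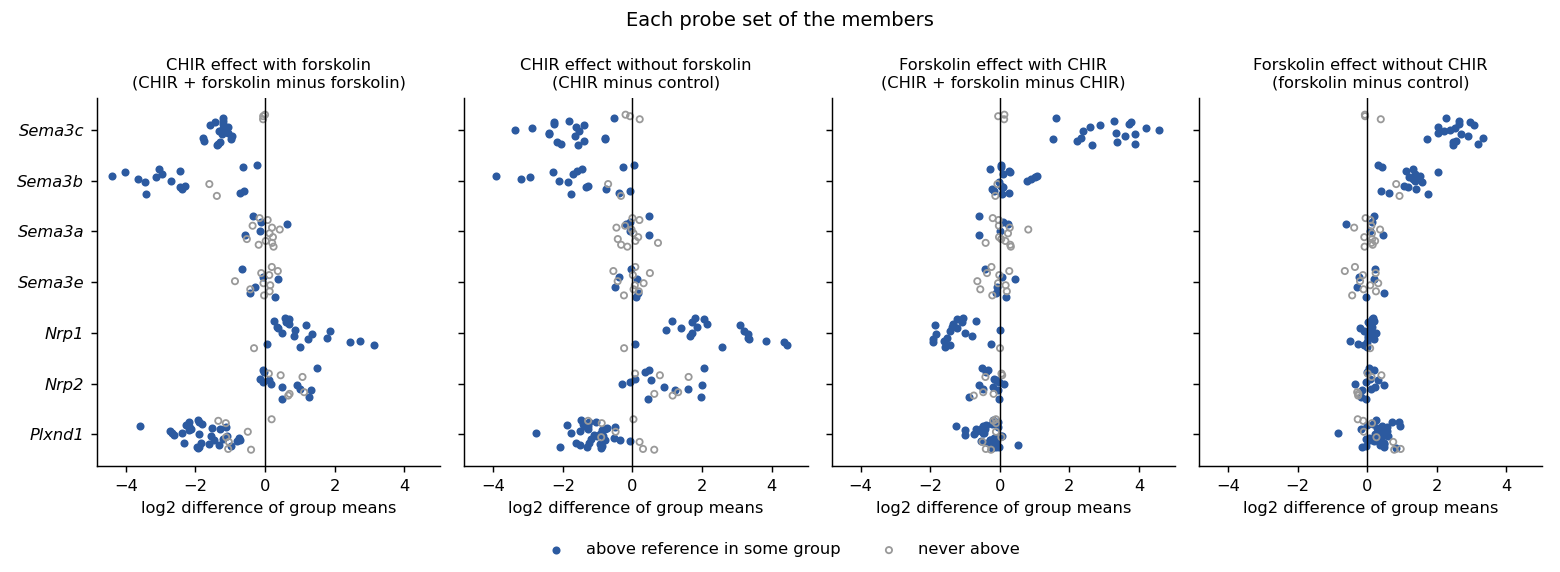
Each point is 1 probe set, with its log2 difference of group means on the x axis and its gene on the y axis, filled where a group mean passed the guide level of 6.42 and open where none did. In the panel of forskolin with CHIR the filled points of Sema3c lie right of 0, those of Nrp1 lie mostly left of it, and most of Sema3b lie near 0 with a few up to 1.07.

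The other genes of the pathway were taken from lists of further semaphorins, plexins, neuropilin partners, semaphorin-cleaving proteases and plexin effectors, with 57 of 59 measured. With CHIR against control 12 rose and 15 fell, with forskolin against control 9 rose and 9 fell, and with CHIR_Forskolin against CHIR 8 rose and 8 fell. Their medians in these comparisons were 0.01, 0.03 and -0.02. The lists together had 47.4%, 31.6% and 28.1% of genes called, where all genes had 28.2%, 15% and 13.9%. With CHIR_Forskolin against control 12 rose and 15 fell (47.4%, all genes 29%), with CHIR_Forskolin against forskolin 11 were higher and 19 lower (52.6%, all genes 30.1%), and with CHIR against forskolin 14 were higher and 18 lower (56.1%, all genes 35.3%).

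Among the ligands, Sema3f, a class 3 semaphorin that prefers Nrp2, averaged 6.18 ± 0.27 in CHIR_Forskolin cells, 6.42 ± 0.29 with CHIR, 7.36 ± 0.14 with forskolin and 8.01 ± 0.08 in control. Unlike Sema3c and Sema3b it was lower with forskolin than in control, with a difference of -0.66 (adjusted p = 0.00743), and it fell with CHIR by 1.60 (adjusted p = 1.46e-06). Of 13 membrane semaphorins 4 rose and 6 fell with CHIR, where 14.3% of all genes rose and 13.9% fell. Sema6d, a transmembrane semaphorin that binds Plxna1, fell with CHIR by 2.38 (adjusted p = 1.08e-10) to 10.19 ± 0.08, against 12.57 ± 0.08 in control, and was 1.34 higher in CHIR_Forskolin cells than with CHIR (adjusted p = 9.84e-08). Sema5a fell with CHIR by 2.22 (adjusted p = 3.32e-08) and differed by -0.09 between CHIR_Forskolin and CHIR (adjusted p = 0.78). Both of these groups were near background for Sema5a, at 6.30 ± 0.21 in CHIR_Forskolin cells and 6.39 ± 0.28 with CHIR. Sema4g went the other way, with a rise of 1.17 with CHIR (adjusted p = 3.74e-05) and a difference of -1.59 between CHIR_Forskolin and CHIR (adjusted p = 6.64e-06). Sema4c and Sema6a, also membrane semaphorins, were lower with CHIR than with forskolin by over 1 log2 unit (differences -1.05 and -1.28).

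Among the receptors and their partners, Plxnc1, the receptor of the membrane-anchored Sema7a, rose with forskolin by 1.44 (adjusted p = 3.25e-07). It averaged 8.21 ± 0.04 in CHIR_Forskolin cells, 6.53 ± 0.01 with CHIR, 7.69 ± 0.17 with forskolin and 6.25 ± 0.18 in control. Plxnb3 fell with CHIR by 1.13 (adjusted p = 7.97e-06) near background, a fall not seen with its brightest probe set (0.0024, adjusted p = 0.992). L1cam, an adhesion molecule that joins Nrp1 in the Sema3a receptor, fell with CHIR by 2.53 (adjusted p = 1.98e-09) to 6.17 ± 0.22, against 8.70 ± 0.14 in control. With its brightest probe set the fall of L1cam did not pass (-0.66, adjusted p = 0.0833). Beside 14.3% of all genes that rose and 13.9% that fell with CHIR, 2 of the 4 convertases that cleave class 3 semaphorins rose, Furin (0.75, adjusted p = 7.61e-06) and Pcsk7 (0.54, adjusted p = 0.00672). Among 20 effectors 4 rose and 4 fell with CHIR, beside the same shares. Rnd1, a small GTPase that binds plexins, rose by 1.69 (adjusted p = 1.27e-07) and was lower in CHIR_Forskolin cells than with CHIR (-0.89, adjusted p = 0.000192). Dpysl4, of the collapsin response mediators, fell with CHIR by 1.13 (adjusted p = 0.000882) to 5.31 ± 0.11, near background, against 6.44 ± 0.35 in control. Farp1, an exchange factor that works with plexins, differed by 1.07 between CHIR and forskolin (adjusted p = 8.63e-07), a value of -0.25 with its brightest probe set (adjusted p = 0.146).

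**Figure D4:**
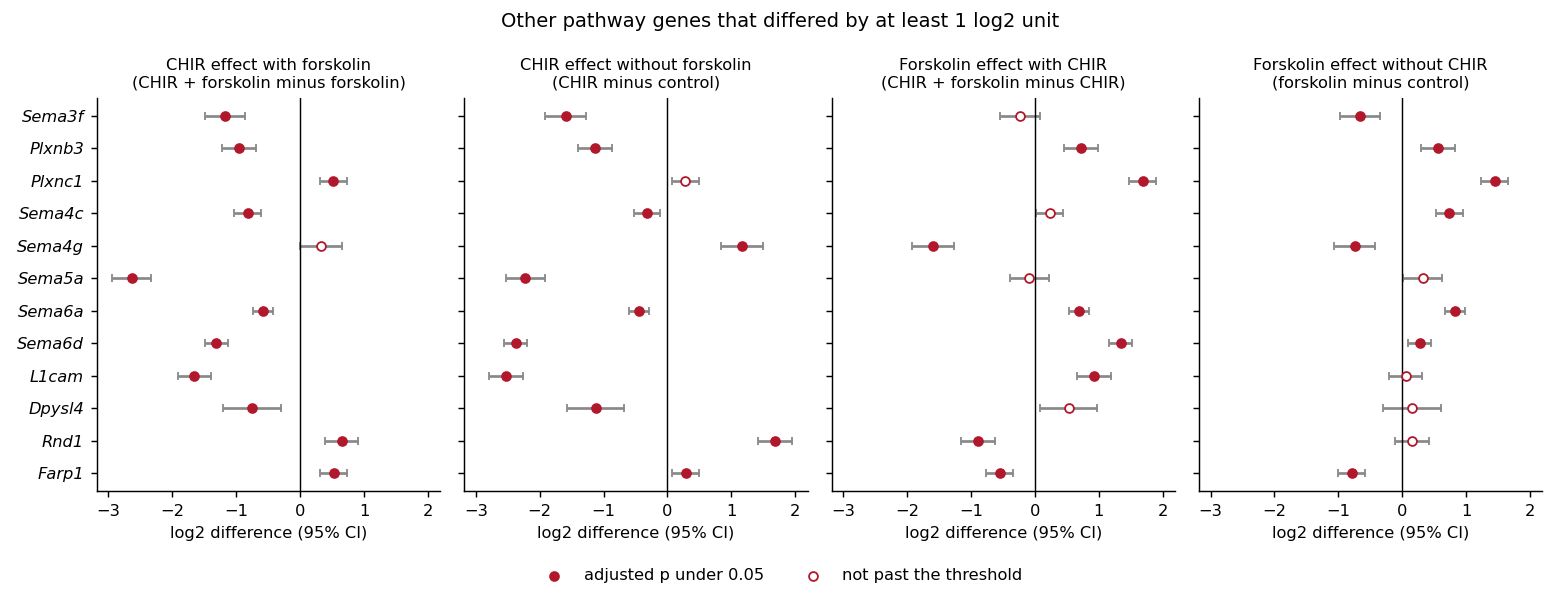
The panels plot the log2 difference with its 95% interval (x axis) for the 12 other pathway genes that differed by at least 1 log2 unit in some pair of groups (y axis), filled where the adjusted p was under 0.05. Sema5a, Sema6d and L1cam lie furthest left in the panel of CHIR without forskolin, at -2.22, -2.38 and -2.53, and Plxnc1 lies furthest right in both forskolin panels, at 1.69 with CHIR and 1.44 without.

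Markers of other cell types were measured beside these genes. Of all genes 14.3% rose and 13.9% fell with CHIR, and 6.08% were higher and 8.96% lower with forskolin, against control. Of 8 neuronal markers 3 fell and 0 rose with CHIR, and 3 rose and 1 fell with forskolin against control. Their summed linear signal ran from 3086 to 3529 in CHIR_Forskolin cells, 845 to 1254 with CHIR, 6950 to 7185 with forskolin and 3333 to 3652 in control. This sum was highest with forskolin and lowest with CHIR, as Sema3c was. It was carried mostly by Stmn2 in the groups other than CHIR. With CHIR alone the share of Stmn2 was lower, and 3 of the 8 markers had a mean above the guide level. Stmn2, a microtubule regulator, and Tubb3, a tubulin, fell with CHIR, at 8.88 ± 0.51 and 7.34 ± 0.24 with CHIR and 11.40 ± 0.10 and 8.43 ± 0.11 in control. Elavl3, a neuronal RNA-binding protein, followed another order, with 6.44 ± 0.07 in CHIR_Forskolin cells, 6.57 ± 0.04 with CHIR, 6.98 ± 0.18 with forskolin and 7.46 ± 0.07 in control, and Map2, Snap25 and Dcx were near background in all 4 groups. Of 7 measured endothelial markers 3 fell and 0 rose with CHIR, among them Tek (-2.42, adjusted p = 5.92e-09), and Cdh5, Emcn and Cldn5 were near background in all groups. With forskolin against control 1 endothelial marker was higher (Esam, 0.73) and 2 were lower (Tek, -0.62, and Tie1, -0.36). Their summed signal was 594 to 609 in CHIR_Forskolin cells, 486 to 542 with CHIR, 795 to 890 with forskolin and 979 to 998 in control. Of the 8 extraembryonic endoderm markers 5 fell and 0 rose with CHIR, with summed signals of 43922 to 46102 in CHIR_Forskolin cells, 40064 to 41372 with CHIR, 54335 to 56721 with forskolin and 50087 to 52979 in control. Of 8 fibroblast markers 2 rose with CHIR, Pdgfra (0.31) and Col1a2 (0.27), and 0 fell. The 2 that passed the guide level were Pdgfra and Col1a1, while Col1a2, Dcn and Lum were near background. Their summed signal, carried mostly by the growth factor receptor Pdgfra, was 6294 to 6447 in CHIR_Forskolin cells, 6729 to 6983 with CHIR, 5845 to 6115 with forskolin and 5332 to 6201 in control. Since Pdgfra carries it, this sum is not read as a fibroblast signal. Pdgfra averaged 12.65 ± 0.03 with CHIR, beside 12.26 ± 0.02 for the endoderm marker Gata4. The part of such markers in the semaphorin and receptor results was not tested.

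Genes whose pattern was most like that of Sema3c were taken by Pearson correlation over the 12 arrays, among 1657 genes whose group means spanned at least 1 log2 unit. The 5 closest were Ppm1k (0.984), a mitochondrial phosphatase, Xdh (0.984), which makes uric acid, Nr4a3 (0.983), a nuclear receptor induced by cAMP, Prickle1 (0.981), of the planar cell polarity pathway, and Sox7 (0.98), an endoderm transcription factor. The arrays fall into 4 treatment groups, so these values describe likeness of the group pattern. Among the measured genes of the set, Nrp1 and Nrp2 correlated at 0.917, Sema3b and Plxnd1 at 0.948, and Sema3c with Plxnd1 at 0.401, over the same 12 arrays. The neuropilins correlated negatively with those other genes. Nrp1 stood at -0.827 with Sema3b, -0.760 with Plxnd1 and -0.715 with Sema3c, and Nrp2 at -0.827, -0.809 and -0.579.

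**Figure D5:**
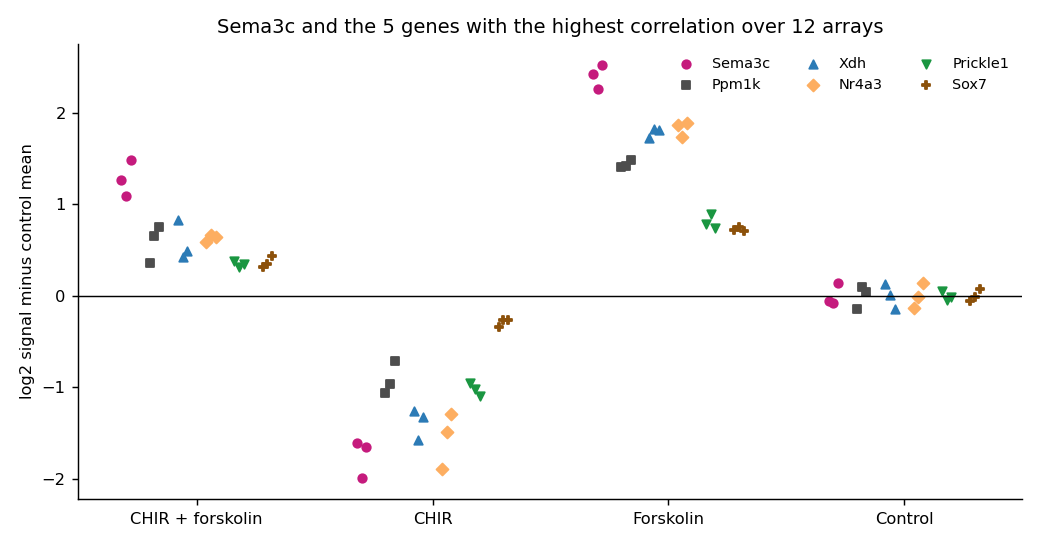
The plot gives the log2 signal of each array minus the gene's own control mean (y axis) by group (x axis) for Sema3c and the 5 genes most correlated with it, 3 arrays per group. The means of all 6 genes lie above 0 with both compounds and with forskolin and below 0 with CHIR, and Sema3c has the widest range.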

How the data were processed

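Total RNA of 12 samples was labelled with biotin and hybridised to Affymetrix arrays, per the labels. The authors deposited 1 log2 signal per exon-level probe set and array, and the submitters' processing notes name RMA and Partek. Log2 was inferred from the range of values. Neither versions nor a genome build were stated in those notes. Of 211195 probe sets, 172924 had 1 gene symbol in the platform annotation, 1661 had several and 36610 none (both left out). Symbols were updated through the RefSeq gene names of GRCr8 (12865 current, 3662 updated, 55 kept), and each gene was given the median over its probe sets. No detection call was used.

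The fit used limma 3.58.1 (R 4.3.3, with data.table version 1.17.8) with eBayes and 4 group means over 12 arrays. All tests were two-sided, with Benjamini-Hochberg adjustment over all 16582 genes, or all 211195 probe sets, of each of 7 comparisons, with a threshold of 0.05. On simulated data for CHIR against control over 16582 genes, 93 of 100 changes of 1 log2 unit and 52 of 100 of 0.5 were recovered. Precision is limited by 3 arrays per group.

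Members and lists were chosen with earlier results of these data known. Named pathway genes differed by at least 1 log2 unit in some pair of groups; genes named outside that rule (Furin, Pcsk7, Axin2, Crem and cell type markers) serve the list counts and checks. No pairing by replicate number was seen over all genes: deviations of same-numbered arrays correlated at -0.20 to 0.16, above 0.1 in 1 of 18 pairs. The main fit used no replicate block. Such correlations could miss a pairing that acts on few genes.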

Additional observations from a re-analysis of the deposited data

Results flagged for a closer look

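The effect of forskolin with CHIR differed from its effect without CHIR, by the interaction of the fit, for 3 of the 7 measured genes. Of all genes 6.33% passed, 3.08% with a negative sign. Sema3c, whose forskolin values led to the choice, is not among the 3. The difference was -1.32 log2 units for Nrp1, -0.82 for Plxnd1 and -1.03 for Sema3b. The call of Sema3b was lost with its brightest probe set (-0.20, adjusted p = 0.749 by limma). That of Plxnd1 was lost with only the probe sets above the guide level (-0.54, adjusted p = 0.0913). Among single probe sets the interaction passed as negative for 7 of 21 of Nrp1, 7 of 19 of Sema3b and 0 of 40 of Plxnd1. Of all probe sets 0.888% passed as negative. The gene value of Nrp1 was near background without CHIR, that of Sema3b with CHIR, and that of Plxnd1 with both compounds, while single probe sets of each were brighter. The 3 differences of the main fit rest on the same 12 arrays.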

How the results depend on the processing

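Direction and call of the CHIR effect against control were kept for Sema3c, Sema3b, Nrp1 and Plxnd1 under all alternatives run (mean or brightest probe set, probe sets above background, median-centred arrays, intensity trend, dim genes filtered out, compared groups alone, and each replicate left out). Over all member differences and alternatives, 680 kept direction and call, 14 gained and 9 lost the call, and 4 reversed. With the brightest probe set Nrp2 reversed for CHIR_Forskolin against control (-0.063) and against forskolin (-0.14), and Sema3b for CHIR_Forskolin against CHIR (1.00, and 0.21 with the mean of the probe sets). Plxnb3 with CHIR (0.0024) and Farp1 for CHIR against forskolin (-0.25) reversed with the brightest probe set as well, and the cause was not tested. Nrp2 also lost its calls for CHIR against control (0.089) and against forskolin (0.0092) with that probe set. Plxnd1 for forskolin against control, also a description, joined the called genes with the mean (0.31) and brightest (0.49) probe set, with centred arrays (0.44), with dim genes filtered out (0.38) and without Forskolin replicate 2 (0.45). Another 46 differences that passed in neither fit changed sign. The interaction of Sema3c, a description since its forskolin values led to the choice, was 0.46 with the mean of the probe sets, 1.32 with the brightest, 0.69 without CHIR replicate 1 and 0.72 without CHIR_Forskolin replicate 2. The number of members called ranged from 2 to 3 for CHIR_Forskolin against CHIR and for forskolin against control, and from 3 to 4 for the interaction, with 1 replicate left out. In the main fit 13.9%, 15% and 6.33% of all genes were called in these 3 comparisons. The counts for forskolin against control are a description. So is the interaction call that Sema3c gained without CHIR replicate 1 and without CHIR_Forskolin replicate 2. For all genes the interaction gave 1050 calls, 1870 with the mean and 631 with the brightest probe set. The fit with a replicate block kept the number of members called in the 6 pairwise comparisons. For the interaction it counted 4 in place of 3, the added gene being Sema3c (0.62), which is not read as a test. Of the 12 arrays 3 correlated best with another group's array of their own number. Differences of gene values under 6.42 may be understated, which was not tested.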
